A study of Mus musculus with 18 samples.

Results

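Older L1 LINE loci are the copies of the L1 retrotransposon family that lie outside the young mouse L1Md subfamilies. They were taken as every row of the rRNA-depleted RNA-seq table whose name carries the family L1 and a subfamily that does not begin with L1Md. This rule used no measured value. It gave 778556 loci in 127 subfamilies, out of 905228 L1 loci and out of 3749927 genes and transposable element (TE) loci in the table. The RNA came from C3H/10T1/2 cells, a mouse mesenchymal progenitor (MPC) line. *Atrx* WT cells had received an empty Cas9 vector, and the *Atrx* KO cells are clone G7, made with the guide sg5, and clone B10, made with the guide sg6. Each of these 3 lines has 3 rRNA-depleted libraries. All share the parental line and the Cas9 step, no drug or differentiation medium is named for them, and each genotype is a single clone or line. A difference between a clone and WT therefore cannot be told apart from other differences between these lines, and the p-values measure the spread between libraries of a line.

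L1 elements encode an RNA-binding protein and a reverse transcriptase, and they copy themselves through an RNA intermediate. Most copies were cut short at their 5′ end when they inserted and have since gathered mutations, so the old ones can no longer move. Many lie inside introns or untranslated parts of genes, so that RNA read at a copy can be part of a longer host transcript. ATRX is a chromatin remodeller that works with DAXX to place histone H3.3 at repeats and telomeres, and the HUSH complex, SETDB1 and HP1 proteins are known to keep L1 copies under H3K9me3. The subfamilies fall into age classes by name. HAL1 and the L1M names (L1MA to L1ME) are shared widely among mammals, L1_Rod and Lx arose in the rodent lineage, and L1_Mur, L1_Mus and L1VL belong to mice and their near relatives.

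Few of these loci gave reads. A count was recorded at 125399 loci, or 16.1%, in at least 1 of the 9 libraries, and 1247 loci had at least 10 counts in every library. The Lx subfamilies held 346814 of the loci and 38.2% of all older L1 counts, L1_Mus held 13.8% of the counts, and L1ME 9.48%. The counts were concentrated, with 8.08% of them at the 10 most abundant loci, 13.4% at the top 100 and 26.1% at the top 1000. After removal of features with low counts, 6753 older L1 loci (0.867% of the members) were tested, and they carried 51.0% of the older L1 counts. A locus could enter through the line in which it is high, so the tested loci are not a sample of all members. Each library showed between 43102 and 71995 of the loci, with 2 or 3 counts at the median detected locus, so most single copies lie below what this depth can compare. A count at a copy inside a gene cannot be told apart from a count of that gene's RNA, and reads that fit several copies were shared among them.

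Library totals ran from 20135336 to 33187136 counts. *Atrx* RNA was lower in both clones, with 5064, 5213 and 8287 counts in WT, 2900, 1092 and 1912 in sg5, and 2334, 2030 and 1909 in sg6. Its log2 fold change was -1.39 ± 0.21 (SE) in sg5 and -1.31 ± 0.20 in sg6 (edgeR quasi-likelihood test, adjusted p = 0.00138 and 0.00227), and both guides left transcript behind. RNA counts do not measure protein, and the paper reports loss of ATRX protein in these lines by immunoblot and immunofluorescence. Markers of mesenchymal cells were present, with summed levels of 4520 to 5736 counts per 1000000 (CPM) in WT and 7070 to 9472 over both clones. *Vim* was the largest part, with means of 2494 in WT, 4341 in sg5 and 4252 in sg6, and was not called (edgeR adjusted p = 0.0588 and 0.0873). Of the 11 markers listed, 10 were tested, with 2 called higher in sg5, 3 in sg6 and 0 lower in either clone. *Nt5e* was near absent with 2 to 13 counts in every library, and *Thy1* had 1 to 16 counts in WT and sg5 but 563 to 792 in sg6. Adipocyte markers summed to 7.78 to 16.4 CPM in WT. Their sum was higher in the clones, at 36.9 to 84.0 (sg5) and 27.3 to 40.9 (sg6). *Pparg* made up most of it, its mean level being 10.6 for WT, 50.7 for sg5 and 30.1 for sg6. It was called higher in both clones, and *Fabp4* in sg5 but not in sg6 (edgeR adjusted p = 0.283). *Adipoq* and *Plin1* had too few counts to be tested. The 4 epithelial markers summed to 1.56 to 3.05 CPM in WT and 0.111 to 0.557 over both clones. In WT nearly all of this was *Cdh1*, the only one of them that was tested, and it was called lower. The part of adipocytes or epithelial cells in the results below was not tested. The third WT library stands apart, because TE loci took 15.5% of its counts and 10.4% to 12.3% of the counts elsewhere. Results that rest on it are given with and without it.

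The total RNA of older L1 did not change detectably. It made up 0.944%, 1.21% and 1.49% of the counts in the WT libraries, 0.951%, 0.868% and 1.08% in sg5, and 0.933%, 0.971% and 1.08% in sg6. The WT libraries span the widest range, and their lowest value lies inside the range of both clones. In such bulk RNA, fewer cells of a type and less RNA per cell cannot be told apart. The mean share was 1.22% ± 0.27 (SD, n = 3) in WT, 0.968% ± 0.11 in sg5 and 0.995% ± 0.076 in sg6. Counting error on any of these shares was at most 0.00415 percentage points (Wilson, 95%), so the spread lies between libraries. The exact two-sided permutation test gave p = 0.30 for each clone against WT, where 3 libraries against 3 cannot go below 0.10, and p = 0.0714 for the 6 KO against the 3 WT libraries, which is 0.32 after adjustment over the 16 share and ratio tests. Within same-numbered libraries sg6 was below WT in 3 of 3 pairs, with differences of -0.0102, -0.244 and -0.413 percentage points, and an exact sign-flip test over these pairs gave p = 0.25, the smallest that 3 pairs allow. Leaving out the third WT library moved the KO minus WT difference from -0.236 to -0.0981 percentage points, and leaving out the first moved it to -0.373.

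**Figure D1:**
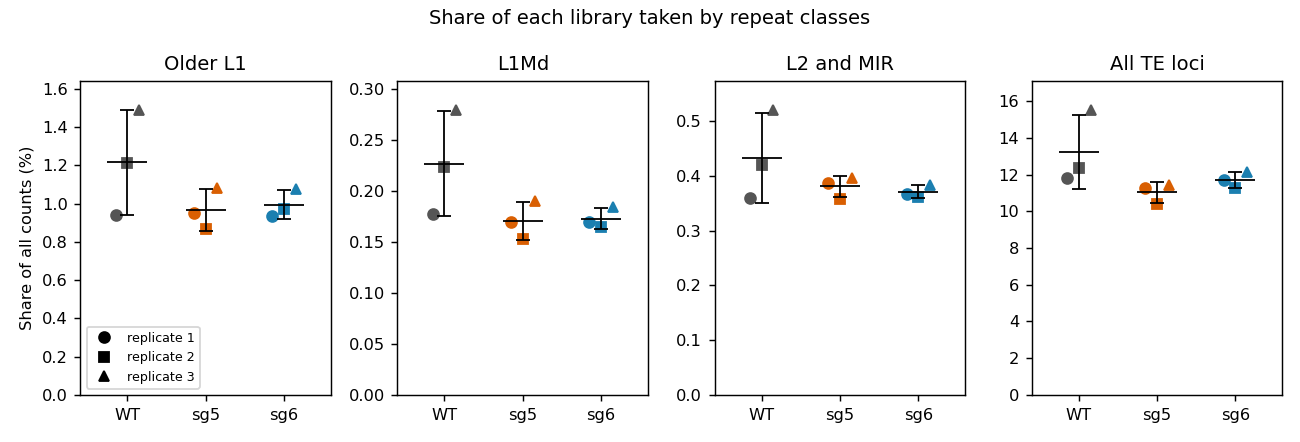
Share of all counts (%, y axis) taken by older L1, L1Md, L2 and MIR, and all TE loci in the 3 libraries of each line; symbols give the replicate number, and bars the mean and SD. Replicate 3 of WT (triangle) is the highest point of every panel, at 1.49% for older L1.

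Summed over all loci and tested in 1 fit with every gene and TE family, older L1 had a log2 fold change of -0.20 ± 0.14 (SE) in sg5 and -0.17 ± 0.14 in sg6. The 95% intervals ran from -0.47 to 0.07 and from -0.44 to 0.11, and edgeR gave adjusted p = 0.353 and 0.516. Of the genes and TE families in that fit, 16.4% were called in sg5 and 10.6% in sg6. The clones differed by -0.03 (95% interval -0.31 to 0.24, adjusted p = 0.943), where 1.80% of features were called. Without the third WT library the log2 fold changes were -0.10 (adjusted p = 0.689) and -0.06 (adjusted p = 0.877). The young L1Md subfamilies, summed the same way, gave -0.28 (adjusted p = 0.193) and -0.27 (adjusted p = 0.268).

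Older L1 held slightly more of the L1 RNA in the KO libraries. The log2 ratio of older L1 to L1Md counts was 2.42 ± 0.018 (SD, n = 3) in WT, 2.503 ± 0.015 in sg5 and 2.53 ± 0.054 in sg6. Every KO library lay above every WT library, with the lowest KO value at 2.46 and the highest WT value at 2.44. The difference of 0.09 had the smallest p that 6 libraries against 3 allow in an exact permutation test (p = 0.0119), and it did not pass adjustment over the 16 tests (adjusted p = 0.19). A lone test at its smallest p cannot pass that adjustment, so the adjusted value does not decide the question. The test also treats libraries of sg5 and sg6 alike. Against L2 and MIR, repeats of the ancestral mammalian genome, the log2 ratio was 1.48 ± 0.077 in WT, 1.34 ± 0.097 in sg5 and 1.42 ± 0.073 in sg6, and the groups overlapped (exact permutation p = 0.155 for KO against WT).

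The 14 groups of subfamilies moved little. In a fit in which the groups replace the older L1 total, edgeR called 0 of 14 in either clone, while 16.3% of the genes, TE families and groups in that fit were called in sg5 and 10.6% in sg6. DESeq2 called 1 group, that of L1_Mm, MusHAL1 and X9_LINE, in sg6 alone. L1ME was nearest to 0, with log2 fold changes of 0.01 ± 0.11 and 0.03 ± 0.11. Its sum includes L1MEg_dup958, an abundant locus that is described below. The median over the 335 tested L1ME loci was -0.09 in each clone. The Lx group had -0.22 ± 0.14 and -0.17 ± 0.14, and L1_Mur had -0.30 ± 0.17 and -0.23 ± 0.17. The group of L1_Mm, MusHAL1 and X9_LINE had the lowest values, -0.52 ± 0.27 in sg5 (adjusted p = 0.211) and -0.92 ± 0.27 in sg6 (adjusted p = 0.0571). This group was called lower in each clone once the replicate number entered the fit as a replicate block. In sg6 it was also called lower in the fit of sg6 with WT alone and in those without the first WT, the first sg5 or the third sg5 library.

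**Figure D2:**
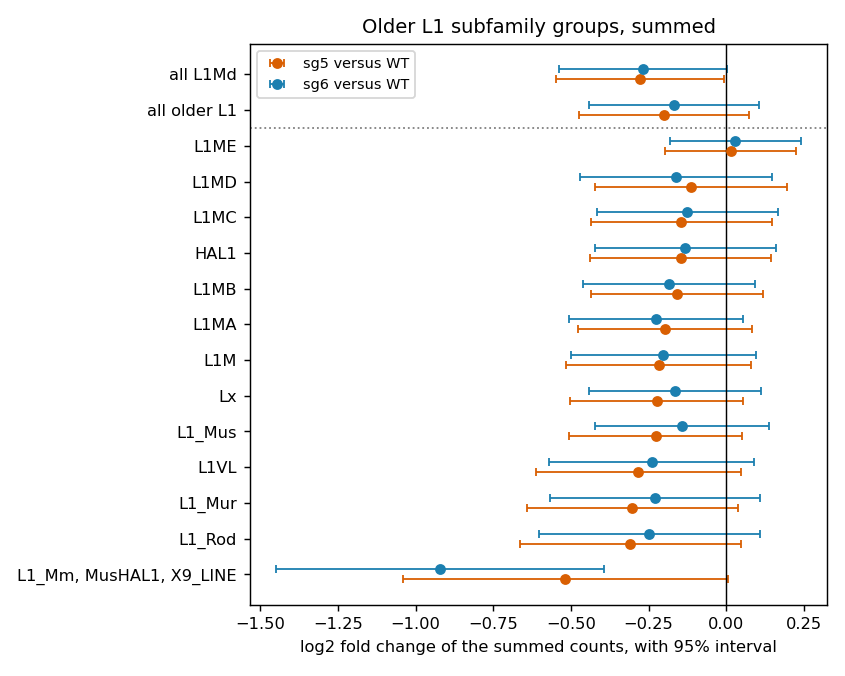
Log2 fold change (x axis) of the summed counts of each older L1 subfamily group, and of all older L1 and all L1Md, for sg5 (orange) and sg6 (blue) against WT; bars are 95% intervals and the L1P group (2 loci tested) is left out. All points but those of L1ME, at 0.01 and 0.03, lie below 0, and all intervals cross 0 except those of the group of L1_Mm, MusHAL1 and X9_LINE in sg6 and of L1Md in sg5. The intervals take a normal quantile and are narrower than the edgeR test implies, which for L1Md in sg5 gave an unadjusted p = 0.0710.

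Single subfamilies were summed in the same way, and 124 of 127 were tested. In sg5, 1 was higher and 0 were lower. In sg6, 1 was higher and 1 was lower, and 0 were called in both clones. In that fit, 15.3% of all TE subfamilies and genes were called in sg5 (8.59% higher and 6.71% lower) and 10.0% in sg6 (5.02% higher and 5.03% lower). At an unadjusted p under 0.05 there were 14 lower and 2 higher subfamilies in sg5, and 7 lower and 1 higher in sg6. The share of all TE subfamilies and genes under that limit was not counted. In the per-locus edgeR fit, 4311 of 13303 genes were under it in sg5 and 3238 in sg6, so these subfamily counts do not stand out. DESeq2 called 1 subfamily higher and 3 lower in each clone. The values leaned below 0, at 113 of 124 subfamilies in sg5 (median log2 fold change -0.22) and 111 of 124 in sg6 (median -0.19). The medians over all features in the fit, most of them genes, were 0.05 and 0.02. Other TE families leaned the same way: of 19 with a mean of at least 100 CPM, 17 were below 0 in sg5 and 18 in sg6. With the third WT library left out the medians over older L1 subfamilies were -0.10 and -0.06 and 0 subfamilies were called in either clone. The fit with the replicate block called 14 subfamilies lower and 2 higher in sg5. In sg6 that fit called 4 subfamilies lower (L1_Mm, L1VL1, L1ME4c and Lx2A) and Lx3B higher. L1VL1, L1ME4c, Lx2A and Lx3B are named here after their values were seen.

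Lx3B was the subfamily that rose in sg6. Its summed level was 240, 251 and 263 CPM in the WT libraries, 290, 344 and 384 in sg5, and 334, 385 and 393 in sg6. All KO libraries were above all WT libraries, with a log2 fold change of 0.56 ± 0.13 in sg6 (adjusted p = 0.0249) and 0.43 ± 0.13 in sg5 (adjusted p = 0.0525). The locus Lx3B_dup3459 gave 85.9% of the Lx3B counts. With that locus left out, Lx3B summed to 51.3 ± 8.8 CPM in the WT libraries, 37.99 ± 4.3 in sg5 and 41.3 ± 2.6 in sg6 (SD, n = 3), so the mean over the other Lx3B copies was lower in the clones and not higher, with no test run on it. The call in sg6 was lost when the second or the third WT library or either of the sg6 libraries 2 and 3 was left out, with adjusted p up to 0.0851.

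L1_Mm was the subfamily that fell in sg6. It had 149, 272 and 244 CPM in the WT libraries, 97.0, 149 and 202 in sg5, and 73.9, 119 and 110 in sg6. The sg6 libraries were all below WT, and the sg5 libraries overlapped with WT. The log2 fold change was -1.13 ± 0.30 in sg6 (adjusted p = 0.0429) and -0.57 ± 0.30 in sg5 (adjusted p = 0.228). Most of it came from few copies: 14 loci whose numbers in the locus name lie within 10 of L1_Mm_dup3633 gave 69.2% of the L1_Mm counts. These loci, chosen after their values were seen, summed to 163 ± 56 CPM in the WT libraries, 104 ± 46 in sg5 and 57.6 ± 21 in sg6, and the rest of L1_Mm to 58.4 ± 11, 45.2 ± 8.4 and 43.3 ± 2.8. Of the 14, 5 were called lower in sg6 and 0 in sg5, and their log2 fold changes in sg6 ran from -1.95 to -0.29. The L1_Mm sum, without the third WT library, had adjusted p = 0.142 in sg6, and the call was also lost without the second WT library, the second sg5 library or a single sg6 library (adjusted p up to 0.153).

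L1MCb, a subfamily of 713 loci, rose in sg5. It had 16.1, 13.7 and 18.3 CPM in the WT libraries, 20.4, 24.8 and 28.2 in sg5, and 19.6, 14.96 and 20.6 in sg6. The sg5 libraries lay above WT, while sg6 overlapped with WT. The log2 fold change was 0.61 ± 0.18 in sg5 (adjusted p = 0.0479) and 0.19 ± 0.18 in sg6 (adjusted p = 0.570). The locus L1MCb_dup406 gave 44.1% of its counts. This call was lost in 6 of the 9 fits that leave out a library, those without each WT library, the second or the third sg5 library and the third sg6 library (adjusted p up to 0.142). With TMM factors from genes alone, with no filter and with sg5 and WT alone it was lost too (adjusted p up to 0.0859).

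The most abundant subfamilies were Lx8, Lx9, L1_Mus1, L1_Mus3 and L1MEg. Lx8 had a mean of 737 CPM in the WT libraries, 635 in sg5 and 657 in sg6, with log2 fold changes of -0.22 ± 0.13 and -0.17 ± 0.13. Lx9 had -0.23 ± 0.15 and -0.18 ± 0.15, and L1_Mus3 -0.19 ± 0.14 and -0.15 ± 0.14. L1_Mus1 had -0.22 ± 0.14 in sg5 and -0.09 ± 0.14 in sg6. None of these passed the test. L1MEg alone among them pointed up, at 0.21 ± 0.13 and 0.26 ± 0.13 (adjusted p = 0.286 and 0.254), and its locus L1MEg_dup958 gave 81.0% of its counts. The most abundant locus gave over 10% of the counts in 43 of 124 subfamilies and over 50% in 2, Lx3B and L1MEg.

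**Figure D3:**
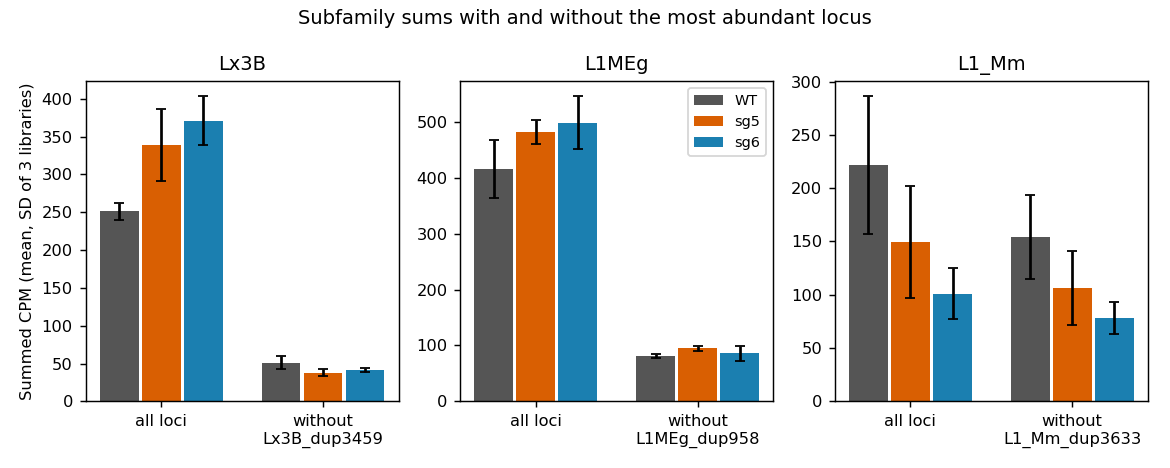
Summed level (CPM, y axis; mean and SD of 3 libraries) of Lx3B, L1MEg and L1_Mm in WT, sg5 and sg6, with all loci and without the most abundant locus. Lx3B is higher in the clones with all loci and lower in them, at 37.99 and 41.3 against 51.3 CPM, without Lx3B_dup3459.

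Between the clones, 0 of 124 subfamilies differed, where 1.71% of all TE subfamilies and genes were called, 0.636% higher and 1.07% lower (edgeR, smallest adjusted p = 0.380; 2 had an unadjusted p under 0.05; DESeq2 called 0). The values farthest apart were HAL1_SS (-1.45 ± 0.63), L1M3f (-1.08 ± 0.72) and L1M3b (-0.57) on the low side for sg5 against sg6, and L1_Mm (0.57 ± 0.30), L1MCb (0.41 ± 0.18) and L1M2c (0.36) on the high side. HAL1_SS, L1M3f and L1M3b averaged 0.258, 0.590 and 0.620 CPM, so their values rest on few counts.

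At the level of single loci, more copies were called lower than higher under the main filter on low counts. In sg5, 35 of 6753 loci were higher and 119 were lower (adjusted p under 0.05 over all genes and TE loci), where 3.88% of all 56086 features were called, 1.82% higher and 2.06% lower. In sg6, 33 were higher and 113 lower, where 2.89% of all features were called, 1.18% higher and 1.72% lower. The share of older L1 loci called was 2.28% in sg5 and 2.16% in sg6, below that of all features and above that of all TE loci (1.75% and 1.44%), differences that were not tested, and genes were called most often (10.7% and 7.58%). The lower calls made up 77.3% and 77.4% of the older L1 calls. With the TMM factors taken from TE loci alone this share was 67.3% and 75.5%, and in DESeq2 it was 67.0% and 75.1%. A filter of at least 10 counts in every library drops any locus near 0 in a line. It left 1247 loci, with 14 higher and 25 lower in sg5 (64.1% lower) and 8 higher and 10 lower in sg6 (55.6% lower). The excess of lower calls was thus weaker there. The median log2 fold change over the tested older L1 loci was -0.19 and -0.13, beside -0.06 and -0.04 over all features and -0.12 and -0.08 over all TE loci. With the third WT library left out, 40 older L1 loci were lower and 16 higher in sg5, 36 were lower and 16 higher in sg6, and their medians were -0.04 and 0.02.

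Both clones shared 94 calls in the same direction, 76 lower and 18 higher, and 0 in opposite directions. That is 1.39% of the older L1 loci tested, against 1.88% of all features and 0.851% of all TE loci, with 1.13% against 1.16% lower and 0.267% against 0.727% higher. The shared calls were 61.0% of those in sg5 and 64.4% of those in sg6, and both comparisons use the same 3 WT libraries. Over all features these shares were 48.5% and 65.1%, and over all TE loci 48.7% and 59.3%. In all 94, which were selected for their difference from WT, every KO library lay beyond every WT library. The 76 lower loci took 1.17% of the older L1 counts in WT and 0.114% in the KO libraries, and 44 of them had at most 3 counts in each KO library. The 18 higher loci took 1.79% in WT and 3.59% in KO, most of it at Lx3B_dup3459. At a log2 fold change beyond 1 in both clones 76 lower and 16 higher loci were left. With at least 10 counts in every library, 7 of the 94 were still tested. That filter called 5 loci higher and 2 lower in both clones, so the excess of lower calls did not hold under it. The third WT library weighs on these counts: once it was left out, 25 were lower and 8 higher in both clones, and 31 of the 33 were among the 94. Without the first the counts were 44 and 10, and without the second 41 and 7. Of the 94, 94 were still tested without the first WT library, 92 without the second and 90 without the third, and all of them kept their direction in sg5.

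**Figure D4:**
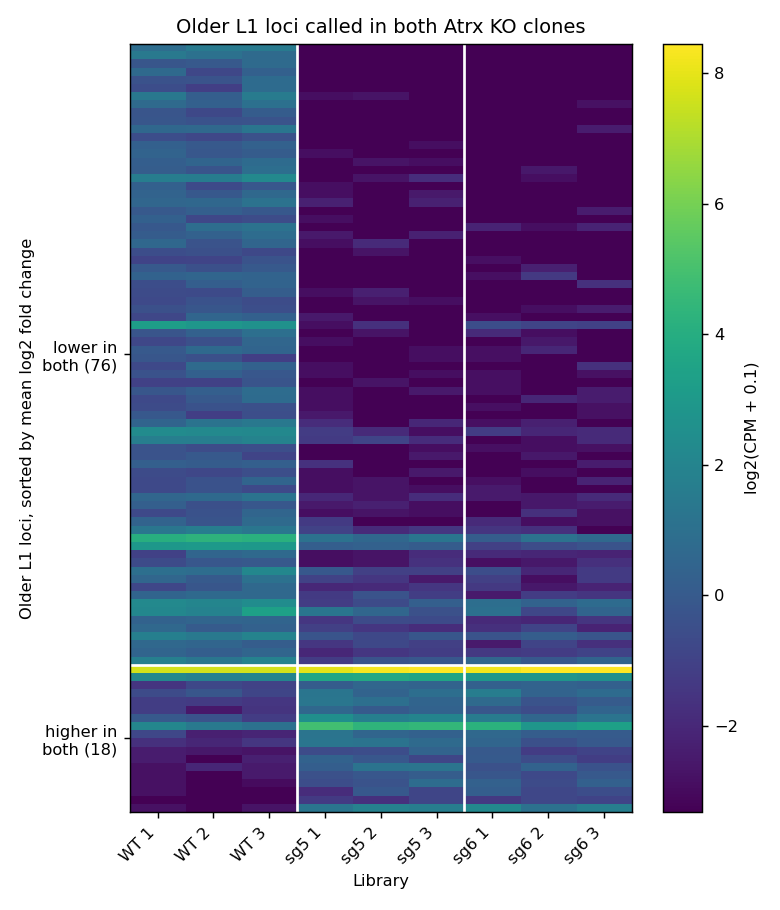
Level, as log2(CPM + 0.1), of the 94 older L1 loci called in both clones (rows, sorted by mean log2 fold change) in each of the 9 libraries (columns). The 76 upper rows are dark in all 6 KO libraries, and the brightest row among the 18 higher loci is Lx3B_dup3459.

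The groups held uneven numbers of these loci. Of the 76 lower loci, 37 were Lx, 9 L1_Mus, 9 L1VL, 5 L1_Mur, 5 L1MA, 4 L1M and 4 L1ME. As a share of the loci tested this was 3.86% in L1VL (9 of 233), 1.36% in Lx, 0.867% in L1_Mus and 0.738% in L1M. The share was 1.13% over all older L1 loci tested and 1.16% over all features. The L1VL calls include the name neighbours L1VL2_dup2107 and L1VL2_dup2108, and L1VL2_dup2141 and L1VL2_dup2142, which may not be independent. No locus was lower in both clones among the 54 tested loci of HAL1, the 420 of L1MB, the 427 of L1MC and the 148 of L1MD. These counts are small and the difference between groups was not tested. Of the 18 higher loci, 7 were L1_Mus, 5 Lx and 3 L1_Mur, with 1 each in L1MA, L1MC and L1MD. The 94 were spread over many subfamilies, 35 for the lower and 12 for the higher.

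Of the lower loci, 9 had no count in any KO library. Lx5_dup10517 had 41, 75 and 102 counts in WT and 0 in all 6 KO libraries. Its mean of 2.37 CPM in WT was at least 18.6-fold above sg5 and 19.9-fold above sg6, set against 3 counts per library (adjusted p = 0.000216 and 0.000197). L1ME4c_dup365, a copy of an ancient mammalian subfamily, had 62, 57 and 60 counts in WT and 0 in every KO library, at least 16.3-fold and 17.4-fold lower (adjusted p = 0.000288 and 0.000280). Both copies were read in every WT library.

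Other loci followed the same pattern at fewer counts. L1MA4A_dup1719 had 19, 25 and 59 counts in WT, and L1MA4A_dup278 had 36, 13 and 42. Lx5c_dup3672 had 16, 20 and 61, and Lx5c_dup3679, close to it by the number in its name, had 19, 19 and 26. L1VL4_dup5959 had 14, 10 and 62 counts in WT, Lx_dup5163 had 18, 14 and 36, and Lx_dup1136 had 14, 13 and 25. All 7 were at 0 in the 6 KO libraries, with bounds from 4.49-fold to 8.52-fold lower in sg5 and 4.80-fold to 9.12-fold lower in sg6 (adjusted p from 0.00225 to 0.0238). Lx7_dup26779 had 38, 32 and 73 counts in WT, 0 in sg5 and 1 in sg6, at least 12.2-fold lower in sg5 (adjusted p = 0.000287), with a WT to sg6 ratio of 121 (95% counting interval 21.4 to 4826). Several of these sums lean on the third WT library. Without it, L1MA4A_dup1719, L1MA4A_dup278, Lx5c_dup3672, Lx5c_dup3679, Lx_dup5163 and Lx_dup1136 had adjusted p from 0.0563 to 0.235, and L1VL4_dup5959 no longer passed the filter on low counts. Calls were also lost without the first WT library (L1MA4A_dup278 in sg6, and Lx5c_dup3679, Lx_dup5163 and Lx_dup1136 in both clones) or the second (Lx5c_dup3679 and Lx_dup1136 in both). Lx_dup1136 further lost its call in a clone without any one library of that clone, and with the replicate block in sg6 (adjusted p = 0.0511). Lx5_dup10517, L1ME4c_dup365 and Lx7_dup26779 stayed called in every fit that left out a library.

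Among more abundant copies, 4 loci named after their values were seen fell by large factors in both clones without reaching 0. Lx_dup5392 had 396, 547 and 668 counts in WT, 56, 27 and 61 in sg5, and 24, 57 and 35 in sg6, a log2 fold change of -3.21 ± 0.27 and -3.57 ± 0.28. Its name neighbour Lx_dup5393 had 178, 221 and 282 counts in WT, 28, 22 and 26 in sg5, and 9, 16 and 17 in sg6 (-2.85 ± 0.27 and -3.77 ± 0.29). L1MA4_dup3743 had 220, 201 and 226 counts in WT, 1, 4 and 0 in sg5, and 14, 12 and 9 in sg6. Its log2 fold change of -6.63 ± 0.56 in sg5 and -4.00 ± 0.44 in sg6 did not differ between the clones (adjusted p = 0.164). Lx2B2_dup1287 had 119, 127 and 164 counts in WT, 9, 3 and 1 in sg5, and 8, 4 and 4 in sg6. The 4 loci were called in every fit that left out a library, with adjusted p at most 0.00131.

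Some calls came in runs of neighbouring names. Of the 94 loci, 24 had another locus of the same subfamily, called in the same direction, whose name number was within 10 of their own. The share of all tested loci with such a neighbour was not counted, so 24 has no background to be set against. Examples of such runs were Lx2B2_dup1286, Lx2B2_dup1287, Lx2B2_dup1291 and Lx2B2_dup1292, L1VL2_dup2107 with L1VL2_dup2108, L1VL2_dup2141 with L1VL2_dup2142, Lx_dup5392 with Lx_dup5393, and L1_Mus3_dup41636 with L1_Mus3_dup41637. The table holds no coordinates, so distances between these copies are not analysed here. Copies can share reads. Of 27688 older L1 loci with at least 20 counts in all, 30 (0.108%) had the same count as another locus in every library, and 0 of these were among the 94. Partial sharing of reads between copies was not measured. L1MB7_dup5639, L1MB7_dup5640 and L1MB7_dup5641, each higher in sg6, form such a set, with 1, 1 and 3 counts in WT, 4, 8 and 7 in sg5, and 14, 17 and 10 in sg6 at each of them.

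The highest locus in both clones was L1_Mus3_dup41636, an L1_Mus copy. It had 1, 0 and 2 counts in WT, 61, 66 and 82 in sg5, and 106, 56 and 75 in sg6. The ratio to WT was 85.7 in sg5 (95% counting interval 28.9 to 419) and 93.1 in sg6 (31.5 to 455), with edgeR adjusted p = 2.75e-05 and 2.39e-05. Its neighbour by name, L1_Mus3_dup41637, had 1, 0 and 1 counts in WT, 16, 13 and 45 in sg5, and 28, 15 and 27 in sg6. Both were near silent in WT and read in every KO library.

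L1_Mus3_dup5273 had 0 counts in WT, 8, 4 and 12 in sg5, and 7, 13 and 10 in sg6, at least 3.06-fold and 3.76-fold higher (adjusted p = 0.0159 and 0.0130). Lx9_dup40301 had 1, 0 and 0 counts in WT, 5, 16 and 12 in sg5, and 25, 13 and 14 in sg6. L1_Mur3_dup18282 had 1, 0 and 3 counts in WT, 18, 15 and 27 in sg5, and 19, 14 and 21 in sg6, a log2 fold change of 4.09 ± 0.62 and 3.89 ± 0.63. In these 3, too, WT and KO libraries did not overlap. Without the third WT library, L1_Mus3_dup5273 had adjusted p = 0.0669 in sg5 and 0.0622 in sg6, and Lx9_dup40301 had 0.0838 in sg5. Without the second WT library both lost their call in sg5, and L1_Mus3_dup5273 also lost it in sg5 without the third sg5 library and in sg6 without the second or the third sg6 library (adjusted p up to 0.0715 in sg5 and 0.0623 in sg6).

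L1_Mus1_dup26963 had 1, 4 and 3 counts in WT, 28, 40 and 60 in sg5, and 16, 33 and 16 in sg6, with log2 fold changes of 4.26 ± 0.52 and 3.17 ± 0.54. L1_Mur2_dup1537 had 5, 4 and 10 counts in WT, 62, 40 and 42 in sg5, and 32, 18 and 21 in sg6 (3.22 ± 0.41 and 2.15 ± 0.42). Both had higher means in sg5 than in sg6, but the difference between clones did not pass the test (adjusted p = 0.477 and 0.387). L1_Mur2_dup1537 lost its call in sg6 without the second WT library (adjusted p = 0.0569). The log2 fold changes of L1_Mus1_dup5290, L1_Mur2_dup14036 and L1MD_dup4270 ran from 2.81 to 3.55 in sg5 and from 2.34 to 3.11 in sg6. Their highest WT library had 11 counts, and their lowest KO library 8. In sg6 each of the 3 lost its call without the third WT library (adjusted p from 0.0900 to 0.161), and L1MD_dup4270 also did in sg5 (adjusted p = 0.0531). Their sg6 calls were also lost without the second WT and the first sg6 library, and those of L1_Mus1_dup5290 and L1_Mur2_dup14036 without the first WT library (adjusted p up to 0.102 for L1_Mus1_dup5290, which was lost without the second sg6 library too).

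The most abundant single loci followed another course. L1MEg_dup958 had 8995, 9767 and 10418 counts in WT, 9634, 7582 and 10747 in sg5, and 9485, 12880 and 9101 in sg6. Its log2 fold changes of 0.21 ± 0.15 and 0.30 ± 0.15 did not pass the test (adjusted p = 0.518 and 0.423). Lx3B_dup3459 had 4686, 5677 and 7544 counts in WT, 6752, 5809 and 9253 in sg5, and 7131, 9627 and 8301 in sg6. Scaled to library size, all KO libraries lay above WT, at 200 ± 2.5 CPM in the WT libraries, 301 ± 48 in sg5 and 330 ± 30 in sg6, and the locus was called in both clones at 0.59 ± 0.14 (adjusted p = 0.0362) and 0.72 ± 0.14 (adjusted p = 0.0137). Its sg5 call was lost with TMM factors from genes alone or from TE loci alone, with no filter and with sg5 and WT alone (adjusted p up to 0.111). Leaving out the third WT library gave adjusted p = 0.114 in sg5 and 0.0593 in sg6, and the call of at least 1 clone was also lost without the first or second WT, the second or the third sg5, or the second or the third sg6 library (adjusted p up to 0.165).

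L1_Mm_dup3633 had 936, 2510 and 2776 counts in WT, 659, 863 and 1612 in sg5, and 309, 833 and 603 in sg6. It fell in sg6 (-1.57 ± 0.37, adjusted p = 0.0333) and had -0.64 ± 0.36 in sg5 (adjusted p = 0.406). Without the third WT library the adjusted p in sg6 was 0.139, and the call was also lost without the second WT or the first or the third sg6 library (adjusted p up to 0.153), and with a minimum of 10 counts in every library (adjusted p = 0.0558). L1MEg_dup1366, at 0.91 ± 0.28 and 0.46 ± 0.28, and Lx5_dup3006, at 0.44 ± 0.26 and 0.37 ± 0.26, were not called in either clone.

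A few older L1 loci told the clones apart. Of 6753 loci, 13 differed between sg5 and sg6 (7 higher in sg5 and 6 lower), where 0.490% of all features were called, 0.216% higher and 0.275% lower. With the replicate block, 13 were higher and 9 lower. Of the 13, 3 had no count in WT and in sg5 and were read in all sg6 libraries. Lx9_dup23109 had 50, 57 and 51 counts in sg6, at least 16.3-fold above sg5 and 20.01-fold above WT (adjusted p = 0.000842 and 0.000141). L1MC1_dup2640 had 27, 26 and 34 counts in sg6, at least 9.09-fold and 11.1-fold higher, and L1_Mus3_dup21327 had 15, 21 and 33, at least 7.21-fold and 8.83-fold higher. These 3 copies were particular to the B10 clone by the test between clones, although L1MC1_dup2640 lost that call without the third sg6 library (adjusted p = 0.0665) and L1_Mus3_dup21327 without the second or the third (adjusted p up to 0.322), and its call against WT without the third (adjusted p = 0.0827).

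In the other direction, L1M4c_dup1432 had 49, 74 and 85 counts in WT, 60, 40 and 61 in sg5, and 5, 4 and 2 in sg6. The sg5 libraries stayed in the range of WT, and sg6 fell by 3.96 on the log2 scale (adjusted p = 3.57e-05 against WT and 0.000135 between clones). Lx7_dup26431 had 16, 14 and 26 counts in WT, 14, 17 and 19 in sg5, and 0, 0 and 2 in sg6, a ratio of sg5 to sg6 of 26.1 (95% counting interval 6.86 to 221). Lx9_dup29597 had 19, 4 and 17 counts in WT, 31, 24 and 59 in sg5, and 5, 1 and 1 in sg6 (log2 difference 3.99 ± 0.69, adjusted p = 0.0177), with WT between the clones. Between clones, Lx7_dup26431 lost its call without the second sg6 library (adjusted p = 0.0629) and in a fit of the clones alone (adjusted p = 0.110), and Lx9_dup29597 without the third sg5 or the second or the third sg6 library (adjusted p up to 0.1003).

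**Figure D5:**
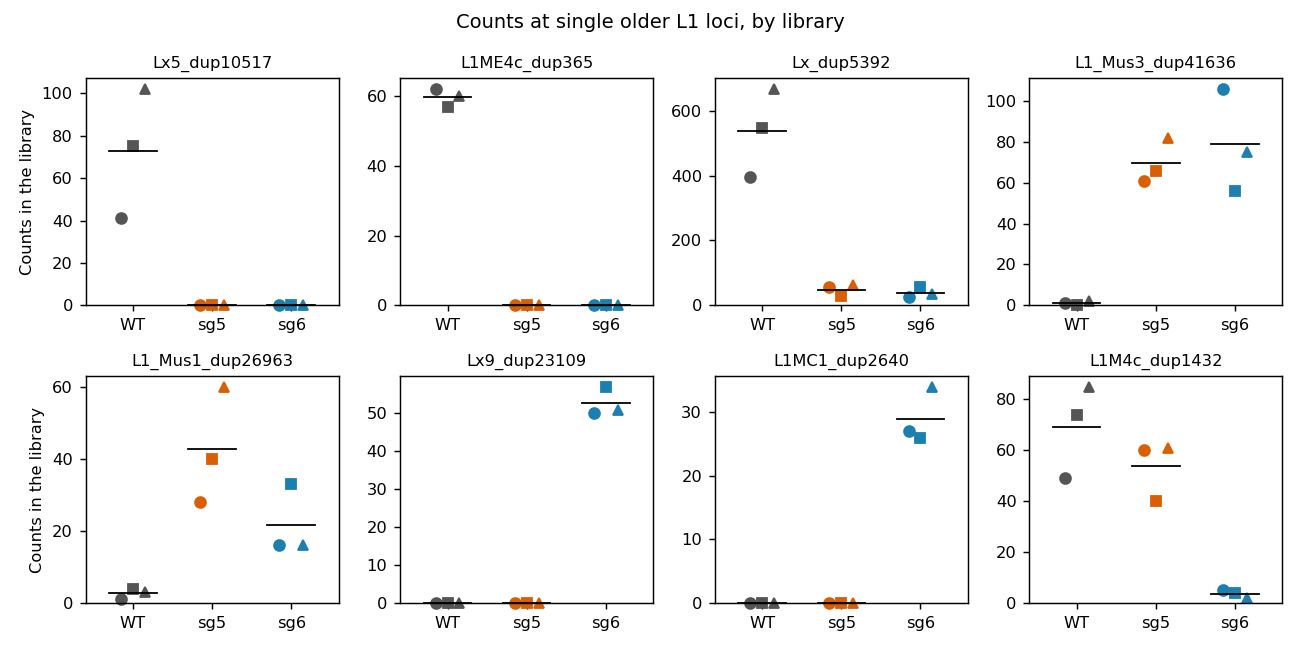
Counts in each library (y axis, linear) at 8 older L1 loci in WT, sg5 and sg6; symbols give the replicate number and lines the mean of 3 libraries. Lx5_dup10517 and L1ME4c_dup365 are at 0 in all KO libraries, and Lx9_dup23109 has 50 to 57 counts in sg6 and 0 elsewhere.

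The same counts were made for young L1Md and for L2 and MIR. Of 1158 tested L1Md loci, 4.15% were lower and 0.864% higher in sg5, and 4.23% and 1.04% in sg6. Of 6753 older L1 loci, 1.76% were lower and 0.518% higher in sg5, and 1.67% and 0.489% in sg6. Of 2403 L2 and MIR loci, 0.416% were lower in each clone, and 1.08% and 0.416% were higher. These shares are over loci that passed the filter, and the difference between classes was not tested.

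Genes known to silence or restrict L1 changed at few points. Of 38 genes listed (HUSH, SETDB1 and TRIM28, HP1 proteins, DNA and H3K9 methyltransferases, and RNA-acting restriction factors), all were tested, with 2 higher and 2 lower in sg5 and 1 higher and 1 lower in sg6, where 10.7% and 7.58% of all genes were called. *Fam208a* (TASOR, the scaffold of HUSH) had 743, 804 and 1237 counts in WT, 1679, 967 and 1440 in sg5, and 1263, 1440 and 1366 in sg6. It rose by log2 fold changes of 0.85 ± 0.14 and 0.80 ± 0.14 (adjusted p = 0.00352 and 0.00637). *Mphosph8*, the chromodomain subunit of HUSH, rose in sg5 (1.19 ± 0.21, adjusted p = 0.00469) and had 0.64 ± 0.21 in sg6 (adjusted p = 0.160). *Cbx1* (HP1β), which binds H3K9me3, fell in sg5 (-0.70 ± 0.14, adjusted p = 0.00963) and had -0.51 ± 0.14 in sg6 (adjusted p = 0.0694). The other lower gene in both clones was *Atrx* itself. The list's median log2 fold change was -0.08 in sg5 and -0.11 in sg6, beside medians of 0.08 and 0.04 over all genes.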

How the data were processed

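The authors counted rRNA-depleted paired reads per gene and per TE locus with TElocal v1.1.1, after alignment to mm10 with STAR v2.27.10a that kept up to 100 alignments per read. The deposited values are raw counts, and reads that fit several loci were shared out by TElocal. The strand setting and the TE annotation used are not given in the sources used here, so sense and antisense copies, and a copy and its host gene, cannot be told apart. A deposited polyA table holds genes alone and was not used. No column of other samples was found (0).

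Groups came from the sample labels. The members and lists were chosen with earlier results of these data known. Low features were removed with filterByExpr (minimum count 10, minimum total 15), libraries were scaled by TMM over genes and TE loci, and all 3 lines were fitted together with the quasi-likelihood test of edgeR 4.0.16 (R 4.3.3). A feature was called at a Benjamini-Hochberg adjusted p under 0.05 over all genes and TE loci, subfamilies, families or groups in that fit. The ± after a log2 fold change is its SE. Shares were compared with exact two-sided permutation tests (scipy 1.17.1), and intervals and floors of 3 counts cover counting error only. CPM uses the TMM-scaled library size. Scripts were tested on simulated counts for sg5 against WT. The fit recovered 6 of 85 features changed by a log2 fold change of 1 and 32 of 83 changed by 2. Of its 41 calls, 3 were false, and most changes of these sizes were missed. The changed features were drawn from all genes and TE loci, and they were few among the 48772 tested. In the data 2176 of 56086 features were called in sg5, so recovery at older L1 loci may differ from that in the simulation.

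Named loci are the 10 lowest and 10 highest called in both clones (ranked by the smaller absolute change, with KO and WT libraries not overlapping), the 5 most abundant, and the 3 highest and 3 lowest between the clones. Named subfamilies are those called in both clones, the 5 most abundant, and the 3 highest and 3 lowest between the clones. Others are said to have been named after their values were seen. Alternatives were DESeq2 1.42.0, RLE factors, TMM factors from genes alone, other filters on low counts, only the groups compared, a replicate block and leaving out each library. TMM factors from TE loci alone, and the sign-flip test of shares over pairs of WT and sg6 libraries, were added after seeing the data. Deviations of same-numbered libraries were correlated over 17186 features for WT and sg6 (r = 0.318, 0.540 and 0.198) and for sg5 and sg6 (r = 0.649, 0.343 and 0.224). For WT and sg5 these values were 0.270, 0.425 and -0.0717. Some libraries with different numbers were more alike, with r = 0.506 for the third sg5 and second sg6 library. The third WT and first sg6 library had r = 0.214. Whether the numbers pair the libraries is therefore not known, and the labels do not say what they mark. No source says whether the 3 libraries of a line are separate cultures.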

Additional observations from a re-analysis of the deposited data

Results flagged for a closer look

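The level of 13 older L1 loci differed between the clones by the edgeR test of sg5 against sg6, where 0.490% of all features were called, and their log2 differences are given here, positive where sg5 was higher. The lowest were Lx9_dup23109 (-8.79, adjusted p = 0.000842), L1MC1_dup2640 (-7.94, adjusted p = 0.00659) and L1_Mus3_dup21327 (-7.61, adjusted p = 0.0263), all without a count in WT and sg5, so that these fitted values depend on the prior count. L1_Mur2_dup12255 followed with -4.05 (adjusted p = 0.0167), Lx_dup21254 with -1.58 (adjusted p = 0.0289) and L1_Mus1_dup19096 with -1.19 (adjusted p = 0.014). The highest were Lx7_dup26431 (4.50, adjusted p = 0.0158), Lx9_dup29597 (3.99, adjusted p = 0.0177) and L1M4c_dup1432 (3.89, adjusted p = 0.000135). Between them lay Lx8b_dup15008 (2.71, adjusted p = 0.0214), Lx9_dup29595 (2.61, adjusted p = 0.0277), L1MB8_dup5670 (1.99, adjusted p = 0.0442) and L1VL2_dup3241 (1.41, adjusted p = 0.0277).

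Of these 13 loci, 2 were also called in sg5 against WT and 5 in sg6 against WT. Lx9_dup29595 and Lx9_dup29597 belong to the same subfamily and have close numbers in their names.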

How the results depend on the processing

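The older L1 total kept its direction and stayed uncalled in both clones under every alternative run, from -0.26 to -0.10 in sg5 and from -0.23 to -0.06 in sg6 when 1 library was left out, and at -0.08 in both with TMM factors from TE loci alone, which moved the median of all genes by 0.10 and 0.07. Between the clones it ran from -0.12 to 0.029, with the sign reversed without the second sg5 library (0.029) or the third sg6 library (0.012). Without the first WT library the KO minus WT difference in share was -0.373 percentage points and in the log2 ratio to genes -0.504, both with exact permutation p = 0.0357. Over all libraries left out in turn, the former ran from -0.373 to -0.0981 and the latter from -0.504 to -0.142.

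Counts of called loci moved more. In sg5 against WT, DESeq2 called 66 higher, no filter 56 higher and 192 lower, and a minimum of 10 counts in every library 14 and 25. In sg6, no filter gave 194 lower and the strict filter 8 higher and 10 lower. Between the clones DESeq2 gave 13 higher and 12 lower, no filter 21 and 15, the strict filter 4 and 2, and the clones alone 3 and 3. For both clones together, no filter gave 126 lower, the strict filter 5 higher and 2 lower, and the 2 groups alone 11 higher. The strict filter left 7 of the 94 loci tested. With 1 library left out, sg5 had 16 to 52 higher and 40 to 142 lower, sg6 12 to 38 and 36 to 148, both clones 7 to 20 and 25 to 72, and the clones differed at 1 to 11 and 2 to 7.

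For subfamilies in sg5, RLE factors and TMM factors from TE loci called 2 higher each, and TMM factors from genes, no filter and the 2 groups alone 0, while DESeq2 called 3 lower in each clone. Called in both clones were 1 higher with RLE or TE-locus factors and 1 lower in DESeq2. With 1 library left out, sg5 had 0 to 2 higher and 0 to 3 lower, sg6 0 to 1 and 0 to 2, and both clones 0 to 1 each way.

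The replicate block, whose numbers are not known to pair the libraries, gave 69 higher and 161 lower loci in sg5 and 13 higher between the clones. It called 2 subfamilies higher and 14 lower in sg5, 4 lower in sg6, and 1 higher and 3 lower in both, and the group of L1_Mm, MusHAL1 and X9_LINE lower in each clone. Of the 67 calls at named loci, 35 were kept whichever library was left out, 25 were lost without the third WT library, 12 without the first and 16 without the second, and 0 changed sign. Depth limits all of this to the 0.867% of loci that could be tested.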
